A study of Mus musculus with 4 samples.

Results

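The genes described here are 48 genes of the mitotic spindle, the kinetochore and the condensin complexes, out of 15887 genes in a table of Cap Analysis of Gene Expression (CAGE) counts from cultured mouse tooth germs. They were chosen by name: every row of the table whose gene symbol stood on a list of 11 mitotic kinesins, 10 centromere and outer kinetochore genes, 4 spindle checkpoint genes, 4 genes of the Aurora kinases and the chromosomal passenger complex, 4 genes of anaphase onset, 7 condensin and topoisomerase genes, 6 spindle organisers and cytokinesis genes, and 2 genes linked to proliferation, Melk and Mki67. All 48 symbols were in the table, each on a single row. CAGE counts 1 tag for each captured 5′ end of a capped RNA, so a count does not scale with the length of the transcript.

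The study asked whether cooling changes the response of tooth germs to cyclophosphamide (CPA), an alkylating anticancer drug that is converted to its DNA-crosslinking form. Tooth germs of ICR mice, labelled embryonic day 14.5, were cultured with CPA or with the solvent DMSO at 37 or 25 °C, which gave a warm pair of libraries, 37°C_DMSO with 37°C_CPA, and a cold pair, 25°C_DMSO with 25°C_CPA. There was 1 library per condition, each from a pool of several tooth germs. The groups share the strain, the tissue and the culture system, and carry no engineered allele. The sources used here disagree on details of the culture. The design text gives 2.5 mM CPA for 3 days before RNA isolation, whereas the protocol attached to the samples gives 0.25 mM CPA for 3 days, then 4 days in fresh medium, with dissection at an earlier embryonic day. The study's methods for CAGE match the design text, with tooth germs of embryonic day 14.5 and 2.5 mM CPA for 3 days. Why the sample protocol differs is not given, and the counts do not show which applied.

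In dividing cells, kinesin motors build the bipolar spindle, condensins and topoisomerase compact and disentangle the chromosomes, and the kinetochore joins each chromosome to spindle microtubules. The spindle checkpoint holds back the anaphase-promoting complex until every kinetochore is attached, after which separase cuts the cohesin that holds sister chromatids together. Transcripts of these genes are low in resting cells and peak in the G2 and M phases. Their promoters are known for the cell cycle homology region (CHR), a short element bound by the MuvB core, which represses in the DREAM complex and activates together with B-MYB and FOXM1, and for CCAAT boxes bound by NF-Y. The tooth germ at these stages holds proliferating epithelium and mesenchyme.

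The promoters of 8 members are shown as examples with or without these elements. Whether the elements go with the response to CPA described below was not tested. RefSeq promoters (GRCm38.p6, 250 bases before to 50 from the annotated start on) matched 41 of the 48 members by symbol, and Tpx2, Ska1, Aurkb, Incenp, Spc24, Kif20a and Smc4 had no entry. Each line gives 100 bases before the start and 12 bases from it on, 5′ to 3′ on the strand of the gene. Capitals mark the words searched on both strands: TTTGAA and TTCGAA for the CHR, CCAAT for the NF-Y box, and the E2F-like words TTTGGCGC, TTTCGCGC and TTTCCCGC. The 8 windows lie at chr9:122950981-122951092 (Kif15, plus strand), chr15:102296193-102296304 (Espl1, plus strand), chr5:45669825-45669936 (Ncapg, plus strand), chr2:164769829-164769940 (Ube2c, plus strand), chr11:99024178-99024289 (Top2a, minus strand), chr19:37376282-37376393 (Kif11, plus strand), chr1:189688075-189688186 (Cenpf, minus strand) and chr6:66535121-66535232 (Mad2l1, plus strand).
Kif15: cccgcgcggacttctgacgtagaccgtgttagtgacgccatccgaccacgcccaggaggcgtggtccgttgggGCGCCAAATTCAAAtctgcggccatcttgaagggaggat
Espl1: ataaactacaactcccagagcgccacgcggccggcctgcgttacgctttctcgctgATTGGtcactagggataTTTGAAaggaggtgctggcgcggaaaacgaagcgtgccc
Ncapg: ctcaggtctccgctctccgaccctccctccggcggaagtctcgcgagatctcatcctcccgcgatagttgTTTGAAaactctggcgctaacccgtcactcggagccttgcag
Ube2c: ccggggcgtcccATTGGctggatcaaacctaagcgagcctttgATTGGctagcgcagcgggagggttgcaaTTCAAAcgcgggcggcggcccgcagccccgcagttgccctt
Top2a: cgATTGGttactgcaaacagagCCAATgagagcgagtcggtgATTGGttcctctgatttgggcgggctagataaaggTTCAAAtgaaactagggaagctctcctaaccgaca
Kif11: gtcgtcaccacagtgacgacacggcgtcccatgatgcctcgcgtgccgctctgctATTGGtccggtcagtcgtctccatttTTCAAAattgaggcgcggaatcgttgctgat
Cenpf: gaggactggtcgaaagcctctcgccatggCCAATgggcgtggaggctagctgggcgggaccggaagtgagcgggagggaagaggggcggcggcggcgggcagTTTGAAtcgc
Mad2l1: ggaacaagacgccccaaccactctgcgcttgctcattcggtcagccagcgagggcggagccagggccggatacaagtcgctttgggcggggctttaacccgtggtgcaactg

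In 6 of these promoters a CHR word began between 30 and 19 bases before the start. In Espl1 the CHR word began at position -27 and an NF-Y box, read on the other strand as ATTGG, began at -44. Kif11 had the words in the same order, with the NF-Y box at -45 and the CHR word at -19. Its CHR word was read on the other strand, as TTCAAA, and lay further from the box than in Espl1. In Kif15 the CHR word at -19 directly followed an E2F-like word at -27. In Cenpf the CHR word lay just after the start, at position 3. The window of Mad2l1 held none of the words, and neither did the rest of its 300 bases.

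Over the whole 300 bases, a CHR word was found in 30 of 41 members (73.2%), against 13.8% of the 11029 promoters of genes in the count table and 19.4% of all 27025 promoters. CCAAT was found in 61.0% of members, against 39.0% and 37.9%. Both were found in 23 members (56.1%), against 6.002% and 7.70%. The E2F-like words, which were added after the counts had been seen, were found in 5 members (12.2%), against 3.64% and 1.91%. A short word matches by its letters alone, so these shares describe the sequences and not binding. The plot of promoter words sets these shares side by side.

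**Figure D1:**
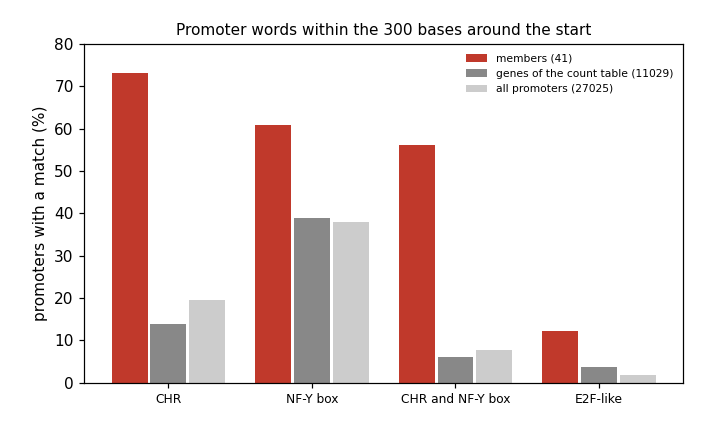
Share of RefSeq promoters (percent, y axis) that hold a CHR word, an NF-Y box, both, or an E2F-like word within 300 bases, for the 41 members with a promoter (red), the 11029 genes of the count table (dark grey) and all 27025 promoters (light grey). The bars of the members stand above the other bars for each word, most widely for the CHR and for the CHR with an NF-Y box (56.1% against 6.002% and 7.70%).

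The libraries held 16449264 counts (37°C_DMSO), 15255885 (37°C_CPA), 15101186 (25°C_DMSO) and 15297204 (25°C_CPA), and members were counted at 45 to 4095 tags. Folds below are ratios of counts after scaling by library total and edgeR's TMM factor (0.967 to 1.03). Each has an exact (Clopper-Pearson) 95% interval for the split of the 2 counts, which covers counting error only, because PCR copies are not told apart and no condition has a replicate. No test between conditions was therefore possible and no p-value is given. A gene counts as measured in a comparison if the larger of its 2 counts is at least 50, and as called at a fold of at least 2. The 4 comparisons share libraries in pairs, so they are not independent of each other.

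In normalized counts, the mitotic genes were higher in 37°C_CPA than in every other condition, with 1 exception among 48. Their summed level, in normalized CPM (counts scaled to a common library size), went from 1822 to 3269 with CPA at 37 °C and from 1526 to 1491 with CPA at 25 °C. Of the 48 members, 47 had their highest normalized count in 37°C_CPA, where 23.3% of the 13683 genes measured had theirs. The exception was Pttg1, which encodes securin, the inhibitor of separase, and which was highest in 25°C_DMSO. The lowest library was 25°C_CPA for 27 members, 25°C_DMSO for 13 and 37°C_DMSO for 8. In such bulk samples, fewer cells of a type and less RNA per cell cannot be told apart.

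**Figure D2:**
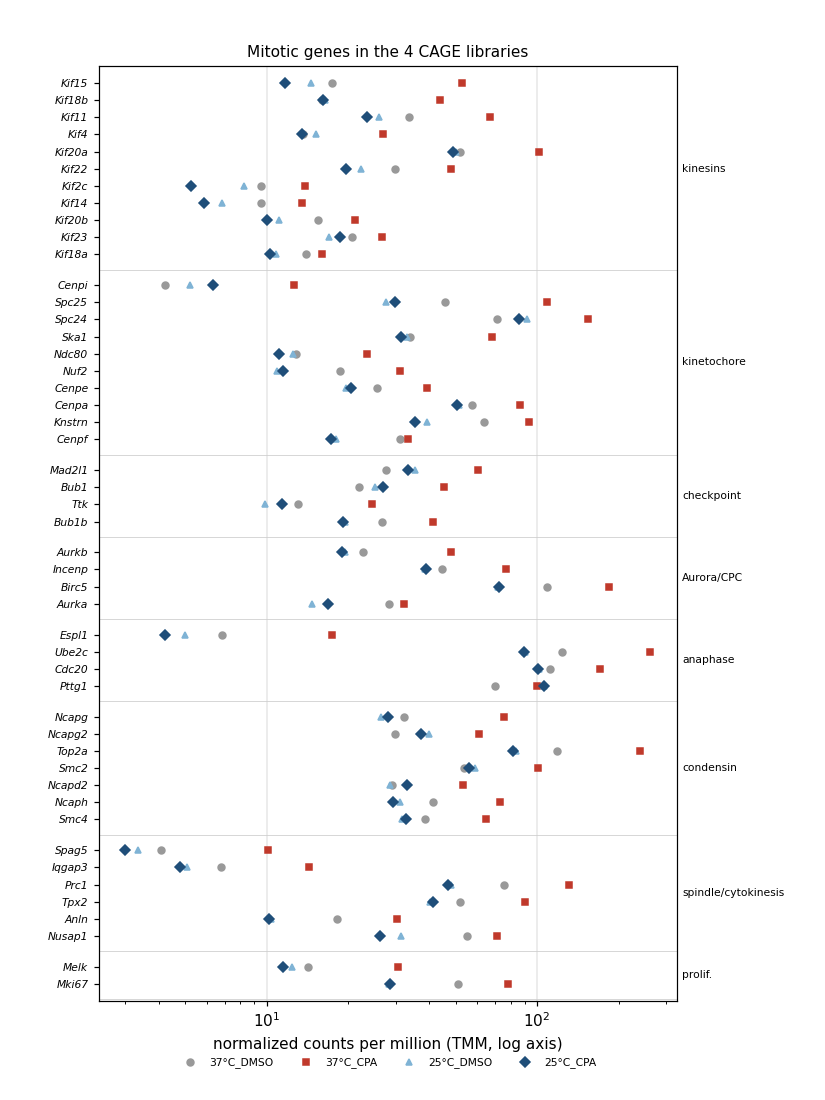
Normalized CPM (TMM scaling, log axis) of the 48 members, grouped by role, in 37°C_DMSO (grey circles), 37°C_CPA (red squares), 25°C_DMSO (light blue triangles) and 25°C_CPA (dark blue diamonds), 1 library each and so without error bars. The red squares lie furthest to the right in 47 of 48 rows, and the 25 °C symbols nearly coincide in most rows.

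At 37 °C, CPA came with higher normalized counts of the mitotic genes. All 48 members were measured and all had a scaled fold above 1 (Cenpf had slightly fewer raw tags), as did 47.3% of the 13307 genes measured. The counting interval lay above 1 in 45 members, as in 24.5% of all genes, and held 1 in Kif18a, Cenpf and Aurka. A fold of at least 2 was reached by 17 members and by 2.4% of all genes. Among the 17, Kif15, Kif18b, Cenpi, Ube2c, Espl1, Ncapg, Spag5, Iqgap3 and Melk are also in the study's list of genes raised with CPA at 37 °C. That list was drawn from these same libraries, and the members were chosen with earlier results known. The share of members called is therefore not independent of those results. No member was at least 2-fold lower, where 1.59% of all genes were. The median log2 fold was 0.85 over the members and -0.02 over all genes, with a range of 0.10 to 1.59 over the members. Their summed counts were 1.79-fold higher (95% interval 1.77 to 1.82). Kif20a, Kif4 and Kif11 lay just under the threshold, at 1.95, 1.97 and 1.998, and Ska1, Top2a and Ncapg2 just over it, at 2.00, 2.03 and 2.03. The count of 17 became 8 when the whole interval had to lie beyond 2-fold (1.21% of all genes) and 9 without scaling (1.89% of all genes). It became 38 at a fold of 1.5, a size that 6.59% of all genes reached upward and 6.61% downward.

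At 25 °C, the same drug came with almost no difference in these genes. Of 47 measured members, with Spag5 under the minimum, none was called in either direction, and among all 12704 genes measured only 0.142% were at least 2-fold higher and 0.118% at least 2-fold lower. The median log2 fold was -0.04 (all genes 0.00) under the scaling used and 0.24 when libraries were scaled to Gapdh instead, which moved the median of all genes to 0.28. The interval lay above 1 for Ncapd2 alone, and below 1 for Kif2c, Kif15 and Nusap1, where 9.44% and 10.4% of all genes did so. At a fold of 1.5 only Kif2c was called, as lower, where 0.937% of all genes were lower and 0.827% higher. Their summed counts were 0.977-fold those of 25°C_DMSO (95% interval 0.959 to 0.995).

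**Figure D3:**
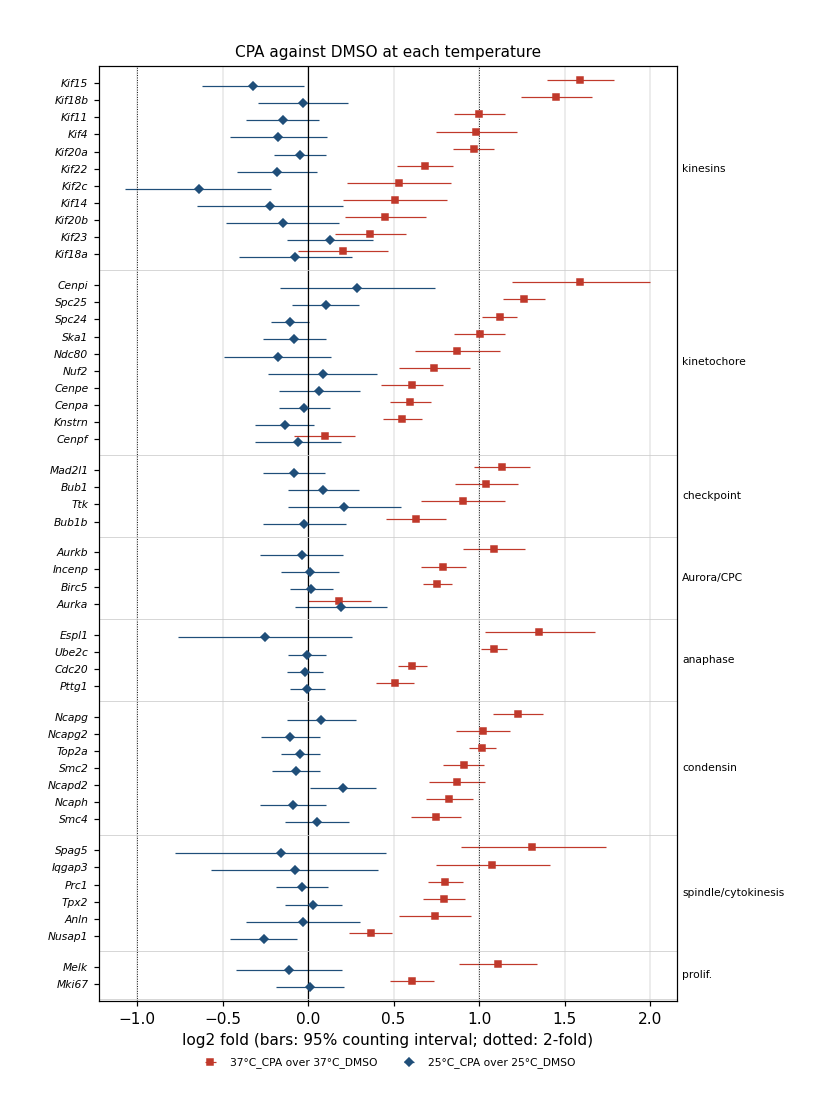
log2 fold with CPA over DMSO (x axis) at 37 °C (red squares) and 25 °C (blue diamonds) for the 48 members, with bars for the exact 95% counting interval and dotted lines at a fold of 2. At 37 °C the points run from 0.10 to 1.59, and at 25 °C they lie on both sides of 0, between -0.64 and 0.28.

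The kinesins ranged widely in the gap between the temperatures: the log2 fold with CPA at 37 °C minus that at 25 °C was largest of all members for Kif15 (1.91), followed by Espl1 of the anaphase genes (1.60) and the kinesin Kif18b (1.48), and was 0.28 for Kif18a and 0.24 for Kif23. From here on, counts are given first for 37 °C (DMSO, then CPA) and then for 25 °C (DMSO, then CPA). Kif15, a motor that works beside Kif11 in keeping the spindle poles apart, had 296, 824, 213 and 175 tags. It lies on chromosome 9 (mm9, 122860199 to 122927843, plus strand). With CPA it was 3.01-fold higher at 37 °C (95% interval 2.64 to 3.45) and 0.801-fold at 25 °C (0.652 to 0.982). The 37°C_CPA library stood far above the other 3, and the 25 °C libraries were the lowest. Kif18b, which destabilises the astral microtubules of the spindle, had 271, 684, 241 and 242 tags and was 2.73-fold higher with CPA at 37 °C (2.37 to 3.16). At 25 °C the counts of Kif18b differed by a single tag.

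Kif11, the motor that slides antiparallel microtubules apart, had 569, 1050, 380 and 352 tags. The chromosome-bound kinesin Kif4 had 231, 421, 222 and 202 tags, and Kif22, another chromokinesin, had 505, 748, 325 and 294. Kif20a, which carries the passenger complex to the spindle midzone, had 881, 1590, 735 and 730. In these 4 kinesins the 37 °C drug library was the highest and the 25 °C libraries lay close together. The others responded less. Kif2c, a microtubule depolymerase of the centromere, had 162, 216, 120 and 79 tags, which gave 1.44-fold (1.17 to 1.78) with CPA at 37 °C and 0.641-fold (0.477 to 0.859) at 25 °C. Kif14 had 161, 211, 100 and 88 tags, Kif20b 263, 332, 162 and 150, and Kif23 351, 417, 249 and 279. These 3 act in cytokinesis, and each was highest in 37°C_CPA by less than 1.5-fold over 37°C_DMSO. Kif18a, which restrains chromosome movement at the metaphase plate, had 236, 251, 158 and 154 tags and its interval at 37 °C held 1 (1.15-fold, 0.960 to 1.38). Of the 11 kinesins, 2 were called at 37 °C with CPA, with a median log2 fold of 0.68.

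Among the 10 members of the centromere and outer kinetochore, the highest fold with CPA at 37 °C was that of Cenpi, a subunit of the inner kinetochore network, with 71, 197, 76 and 95 tags (3.00-fold at 37 °C, 2.28 to 4.00; 1.22-fold at 25 °C, 0.891 to 1.67). It lies on chromosome X (mm9, 130842623 to 130897178, plus strand). Its counts are among the lowest here, and the interval is correspondingly wide. The NDC80 complex, which grips the microtubule, has 4 subunits, and all were in the list. Spc25 had 771, 1706, 405 and 446 tags and was 2.40-fold higher with CPA at 37 °C (2.20 to 2.61). Spc24 had 1206, 2419, 1344 and 1283 tags and was 2.17-fold higher (2.03 to 2.33). Ndc80 had 218, 368, 183 and 166 tags and Nuf2 had 316, 486, 159 and 173, at 1.83-fold and 1.67-fold. All 4 subunits shared the high 37°C_CPA library, but they differed in the cold. From 37°C_DMSO to 25°C_DMSO, Spc24 was 1.29-fold higher (1.19 to 1.40), whereas Spc25 was 1.64-fold lower (1.45 to 1.86) and Nuf2 was 1.71-fold lower (1.41 to 2.09). Ndc80 had an interval that held 1 in that comparison (0.973-fold, 0.795 to 1.19).

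Ska1, a subunit of the complex that couples kinetochores to shortening microtubules, had 574, 1062, 483 and 469 tags. The centromeric histone Cenpa had 970, 1354, 753 and 761, and the kinetochore motor Cenpe had 434, 611, 287 and 308. Knstrn, the partner of astrin at the kinetochore, had 1079, 1460, 570 and 532. Each of these 4 was highest in 37°C_CPA, and in each the 25 °C libraries lay below both 37 °C libraries in normalized counts, for Ska1 only slightly (the interval between the DMSO libraries held 1). Cenpf, a large protein of the outer kinetochore, had 528, 521, 263 and 259 tags. Its counts split by temperature alone, with a fold of 1.07 for CPA at 37 °C (0.945 to 1.21) and 0.960 at 25 °C (0.805 to 1.14). Its promoter holds both a CHR word and an NF-Y box, and a link between such words and the response was not tested. In all, 4 of 10 genes of this group were called at 37 °C with CPA (median log2 fold 0.80).

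The spindle checkpoint genes rank high in the same comparison, with a median log2 fold of 0.97 and 2 of 4 called. Mad2l1, whose product MAD2 binds and holds CDC20, had 468, 948, 516 and 500 tags (2.19-fold at 37 °C, 1.96 to 2.46). The checkpoint kinase Bub1 had 372, 707, 369 and 403 (2.06-fold, 1.81 to 2.34). In both genes the 37°C_CPA library stood far above the other 3. Bub1b, which encodes BUBR1, had 451, 645, 285 and 288 tags, and Ttk, the kinase MPS1 that starts the checkpoint signal, had 221, 382, 144 and 171. Both were lower in the 25 °C libraries than in 37°C_DMSO.

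The Aurora kinases diverged. Aurkb, the kinase of the chromosomal passenger complex, had 383, 751, 285 and 285 tags and was 2.12-fold higher with CPA at 37 °C (1.88 to 2.41). Its partners Incenp (753, 1203, 561 and 580 tags) and Birc5, which encodes survivin (1849, 2879, 1043 and 1085 tags), were 1.73-fold and 1.69-fold higher. Aurka, the kinase of the centrosome and spindle poles, had 479, 502, 215 and 252 tags, with 1.13-fold at 37 °C (0.999 to 1.29) and 1.14-fold at 25 °C (0.948 to 1.38). The counts of Aurka, like those of Cenpf, split by temperature. The difference in log2 fold between 37 and 25 °C was 1.12 for Aurkb and -0.01 for Aurka.

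Among the genes of anaphase onset, Espl1, which encodes separase, had 116, 273, 73 and 63 tags and was 2.55-fold higher with CPA at 37 °C (2.04 to 3.20). Ube2c, the ubiquitin-conjugating enzyme of the anaphase-promoting complex, was the member with the most tags in 37°C_CPA, at 2086, 4095, 1315 and 1344 (2.13-fold, 2.02 to 2.24). Cdc20, the activator of that complex, had 1890, 2660, 1488 and 1506 tags. These 3 genes shared the order 37°C_CPA, 37°C_DMSO and then the 25 °C libraries. Pttg1 had 1186, 1559, 1553 and 1589 tags, so that its 25 °C libraries were level with 37°C_CPA and only 37°C_DMSO was low. It lies on chromosome 11 (mm9, 43233752 to 43239753, minus strand).

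All 7 condensin and topoisomerase genes had intervals above 1 with CPA at 37 °C, and 3 were called (median log2 fold 0.91). Ncapg, a subunit of condensin I, had 545, 1177, 388 and 420 tags and was 2.34-fold higher (2.11 to 2.59). Top2a, the enzyme that untangles sister chromatids, had 2013, 3766, 1225 and 1218 tags and was 2.03-fold higher (1.92 to 2.14). Ncapg2, the matching subunit of condensin II, had 507, 950, 582 and 556 (2.03-fold, 1.82 to 2.26). The 25 °C libraries lay below 37°C_DMSO for Ncapg and Top2a in normalized counts, and above it for Ncapg2. The ATPase subunits Smc2 and Smc4, shared by both condensins, had 911, 1580, 861 and 841 tags and 652, 1010, 461 and 491 tags. The condensin I subunits Ncaph and Ncapd2 had 697, 1139, 456 and 440 tags and 493, 831, 418 and 494 tags. Ncapd2 was the only member whose interval lay above 1 with CPA at 25 °C, at 1.15-fold (1.01 to 1.31).

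The spindle organisers and cytokinesis genes had the lowest group median between 25°C_CPA and 37°C_CPA, at a log2 fold of -1.53. Spag5, which encodes astrin, had 69, 158, 49 and 45 tags, the lowest counts of any member in each library, and was 2.48-fold higher with CPA at 37 °C (1.86 to 3.34). Iqgap3, a scaffold protein of dividing cells, had 115, 224, 74 and 72 tags (2.11-fold, 1.68 to 2.66). In both genes the 25 °C libraries lay under both 37 °C libraries. Prc1, which bundles the midzone microtubules, had 1279, 2057, 702 and 702 tags. Tpx2, the activator of Aurora A, had 878, 1408, 588 and 616. Anln, which encodes anillin of the contractile ring, had 308, 475, 152 and 153. For Prc1, Tpx2 and Anln the 25 °C counts were nearly equal with and without the drug. Nusap1, a spindle microtubule binder, had 931, 1107, 460 and 394 tags, at 1.29-fold with CPA at 37 °C (1.18 to 1.41) and 0.835-fold at 25 °C (0.728 to 0.957).

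Of the genes linked to proliferation, Melk, a kinase abundant in dividing cells, had 241, 480, 181 and 172 tags (2.16-fold with CPA at 37 °C, 1.84 to 2.53). Mki67, whose product Ki67 coats mitotic chromosomes and serves as a proliferation marker, had 865, 1217, 415 and 429 tags. It was 1.52-fold higher with CPA at 37 °C (1.40 to 1.66) and 1.01-fold at 25 °C (0.878 to 1.16), and lies on chromosome 7 (mm9, 142881471 to 142908062, minus strand). Both genes were highest in 37°C_CPA. By staining, however, the study reports significantly fewer Ki67-positive cells in the epithelium and mesenchyme of tooth germs cultured with CPA than with DMSO. That staining used a lower CPA dose than the study's methods give for CAGE. The higher Mki67 count therefore does not show that more cells were dividing. How the RNA counts relate to the stained cells was not tested.

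The drug folds at the 2 temperatures can be set beside each other gene by gene. Their counting intervals did not overlap in 43 of 48 members, Spag5 included, and the interval at 37 °C lay above that at 25 °C in 14.4% of the 12328 genes measured in both. The intervals overlapped for Kif14, Kif18a, Kif23, Cenpf and Aurka. The log2 fold at 37 °C minus that at 25 °C had a median of 0.89 over the members, from -0.01 for Aurka to 1.91 for Kif15. Without replicates this difference was not tested.

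Between the DMSO libraries, 25 °C against 37 °C came with smaller differences in these genes. Of 48 measured members none was at least 2-fold higher or lower in 25°C_DMSO than in 37°C_DMSO, whereas 6.45% and 11.5% of the 13491 genes measured were. The interval lay below 1 in 30 members and above 1 in 4 (Spc24, Mad2l1, Pttg1 and Ncapg2), where 37.7% and 36.3% of all genes did so. The median log2 fold was -0.33 (all genes -0.01), but 0.10 when scaled to Gapdh, against 0.42 for all genes under that scaling. The lowest was Aurka, 1.92-fold lower (1.63 to 2.27), followed by Mki67, 1.8-fold lower (1.60 to 2.03), and Anln, 1.75-fold lower (1.43 to 2.14). The highest was Pttg1, 1.52-fold higher (1.41 to 1.64), followed by Ncapg2 at 1.33 (1.18 to 1.5) and Spc24 at 1.29. At a fold of 1.5, 10 members were lower and 1 was higher, against 21.4% and 17.3% of all genes.

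In the presence of CPA, the cold libraries differed far more. Comparing 25°C_CPA with 37°C_CPA, 30 of 48 members were at least 2-fold lower and none at least 2-fold higher, against 10.9% and 6.32% of the 13343 genes measured. With scaling to Gapdh, 4 members were at least 2-fold lower and none higher, against 4.76% and 28.0% of all genes. The interval lay below 1 in 47 members, with Pttg1 as the exception (1.06-fold, 0.991 to 1.14), and in 36.6% of all genes. At a fold of 1.5, 46 members were lower and none higher, against 20.3% and 16.3%. The median log2 fold was -1.13 (all genes 0.00), and -0.46 when scaled to Gapdh (all genes 0.67). Kif15 was 4.51-fold lower (3.83 to 5.35), Espl1 4.16-fold lower (3.15 to 5.56) and Spc25 3.67-fold lower (3.30 to 4.08). The members that came closest to no difference after Pttg1 were Kif23, 1.43-fold lower (1.23 to 1.67), and Kif18a, 1.56-fold lower (1.27 to 1.92). Of the 17 members called higher with CPA at 37 °C, 12 were among the 30, a count that both comparisons draw from the same 37°C_CPA library. All 6 spindle organisers and cytokinesis genes were called lower, 8 of 11 kinesins, 5 of 10 genes of the centromere and outer kinetochore and 3 of 7 condensin and topoisomerase genes.

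**Figure D4:**
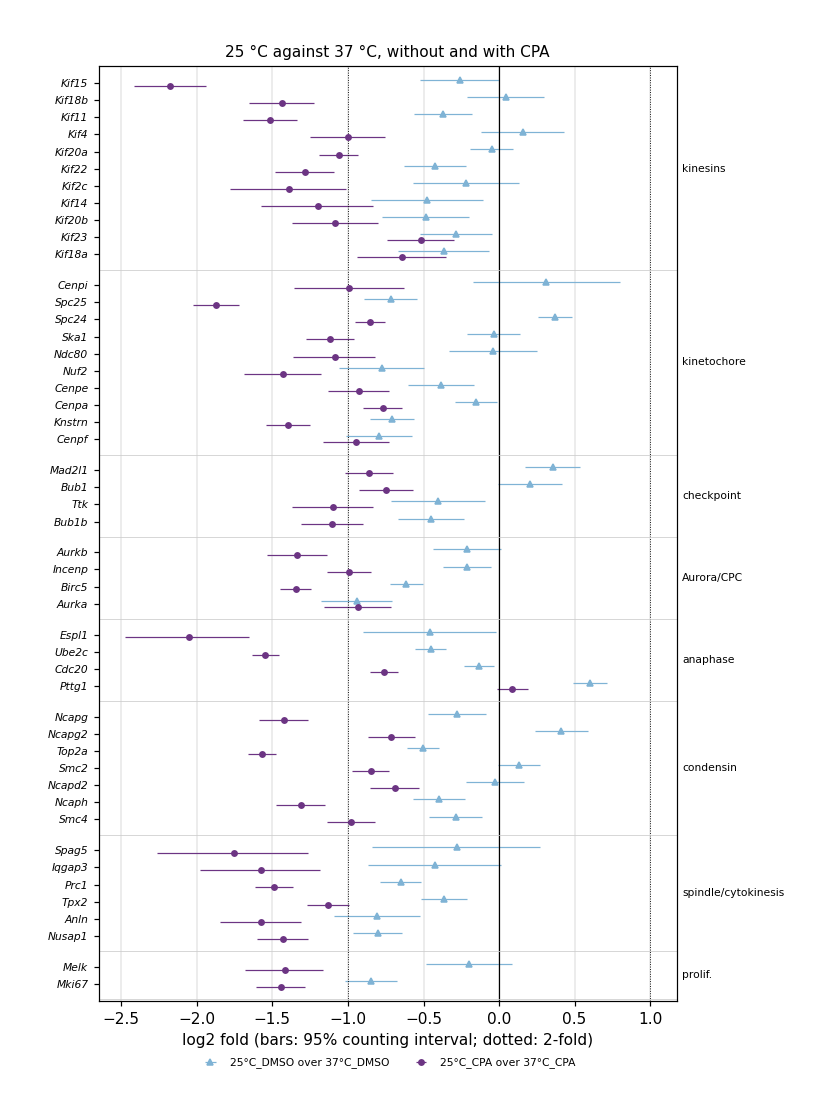
log2 fold of 25 °C over 37 °C (x axis) without CPA (light blue triangles) and with CPA (purple circles) for the 48 members, with bars for the exact 95% counting interval and dotted lines at a fold of 2, under the TMM scaling. No triangle passes a dotted line, whereas 30 circles lie beyond the left one, and Kif15 is the furthest at -2.17.

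Other genes of mitosis, taken from lists of pathway members, were also mostly higher with CPA at 37 °C. Of 111 measured genes in 6 such lists, 25 were at least 2-fold higher and none at least 2-fold lower, against 2.4% and 1.59% of all genes. The median log2 fold was 0.46 (all genes -0.02). Among 27 other spindle and cytokinesis genes, 7 were called higher (median 0.61), led by Psrc1, a microtubule binder and p53 target with 348, 1332, 228 and 210 tags (4.15-fold), Gtse1, another p53-linked microtubule protein with 385, 1302, 198 and 229 (3.66-fold), and Ckap2 with 360, 1030, 345 and 375 (3.10-fold). Kif2a and Numa1 were the lowest of that list, at 0.928-fold and 1.02-fold. Among 19 other outer kinetochore, checkpoint and passenger genes, 7 were called higher (median 0.65), led by Zwilch (3.42-fold), Haspin (3.15-fold) and Kntc1 (3.04-fold), while Mad1l1 and Bub3 were at 1.04-fold and 1.11-fold. Among 18 genes of the constitutive centromere and of CENP-A loading, 7 were called higher (median 0.84), led by Cenph, Cenpu and Cenpw at 2.53-fold, 2.51-fold and 2.41-fold. Psrc1, Gtse1, Ckap2, Zwilch, Haspin and Kntc1 are in the study's list of genes raised with CPA at 37 °C, drawn from these same libraries. So are Esco2, Cdca5 and Rrm2, named below.

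Smaller differences were found in cohesin, in the anaphase-promoting complex and in the regulators of mitotic entry. With CPA at 37 °C, 2.4% of all genes were called higher, so 1 call in so short a list says little about the list. Among 15 genes of cohesin and condensin II, 2 were called higher, Esco2 (2.47-fold) and Cdca5 (2.17-fold), which act in joining sister chromatids during S phase, and the median log2 fold was 0.08 under the scaling used and -0.04 without scaling. Stag1 and Stag2, core cohesin subunits, were at 0.794-fold and 0.837-fold. Among 17 genes of the anaphase-promoting complex, only Fbxo5, which encodes its inhibitor EMI1, was called higher (2.18-fold, median 0.11). Among 15 measured cyclin B-CDK1 and MuvB regulators, only Mybl2, which encodes B-MYB, was called higher, with 267, 645, 390 and 290 tags (2.62-fold, median 0.49). Cdk1 was at 1.84-fold and Ccna2 at 1.83-fold, and E2f4 was the lowest at 0.892-fold. With CPA at 25 °C no gene of these lists was called in either direction, but only 0.142% of all genes were called higher and 0.118% lower.

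**Figure D5:**
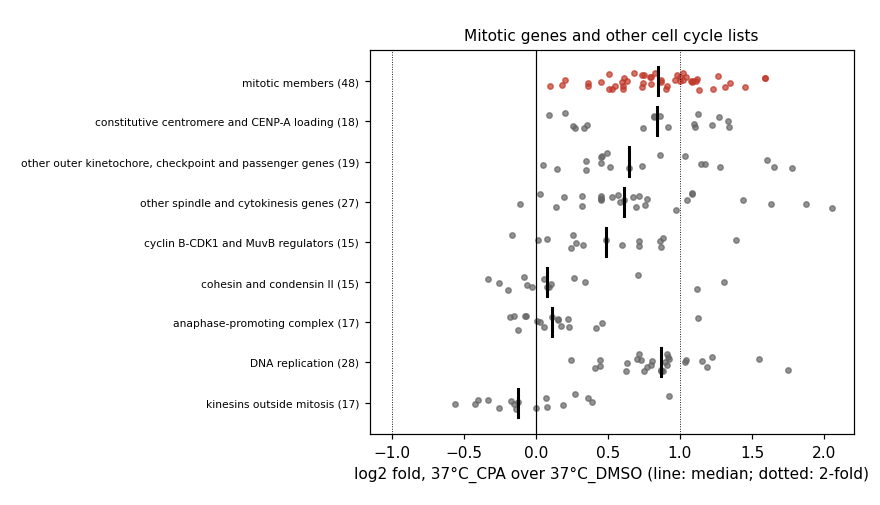
log2 fold of 37°C_CPA over 37°C_DMSO (x axis) for each measured gene (points) of the 48 members (red) and of 8 other lists (grey), with a line at each median and dotted lines at a fold of 2; the vertical scatter within a list carries no value. The medians of the members, of the constitutive centromere list and of the DNA replication list lie at 0.85, 0.84 and 0.87, and that of the kinesins outside mitosis at -0.12.

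A pair of further lists shows where the mitotic genes stood apart. The kinesins that carry cargo or serve cilia outside mitosis had a median log2 fold of -0.12 over 17 measured genes with CPA at 37 °C. None was called, where 2.4% of all genes were called higher and 1.59% lower. Kif17 (1.89-fold) and Kif7 (1.31-fold) were the highest and Kif21b (0.677-fold) and Kifap3 (0.747-fold) the lowest. The 28 DNA replication genes, by contrast, had about the same response to CPA at 37 °C as the mitotic genes, with 7 called higher, none lower, and a median of 0.87. They were led by Rrm2, a subunit of ribonucleotide reductase, with 430, 1332, 455 and 454 tags (3.35-fold), Mcm10 (2.92-fold) and Orc1 (2.33-fold), and Gins2 (1.19-fold) and Mcm2 (1.33-fold) were the lowest. In the temperature comparisons the replication genes differed from the mitotic genes in their medians. From 37°C_DMSO to 25°C_DMSO the replication genes had a median log2 fold of 0.20 and the mitotic genes one of -0.33, and with scaling to Gapdh these were 0.63 and 0.10. From 37°C_CPA to 25°C_CPA the medians were -0.58 and -1.13, with 8 of 28 and 30 of 48 called lower, against 10.9% of all genes. With scaling to Gapdh the medians were 0.08 and -0.46 (all genes 0.67), with 1 and 4 called lower, against 4.76% of all genes. The kinesins outside mitosis had a median of -0.24 from 37°C_DMSO to 25°C_DMSO, close to that of the mitotic genes, and of -0.14 from 37°C_CPA to 25°C_CPA (0.18 and 0.52 with scaling to Gapdh). The difference between the lists was not tested, since genes are not replicates of a condition.

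Markers of other cell types also differed in these comparisons. With CPA at 37 °C, summed normalized CPM went from 124 to 54.1 for skeletal muscle (6 of 9 measured markers at least 2-fold lower), from 606 to 295 for bone and odontoblast genes (4 of 7), from 1025 to 740 for macrophage and leukocyte genes (4 of 15), and from 4383 to 2722 for dental mesenchyme (0 of 15). Of all genes, 1.59% were at least 2-fold lower in that comparison. Dental epithelium markers, with keratins such as Krt14, summed to 3527 and 4109, and endothelial markers to 231 and 174. At 25 °C the sums without and with CPA were 69.6 and 95.4 for muscle, 98.5 and 114 for bone, 226 and 231 for macrophages, 2013 and 2080 for mesenchyme, 2590 and 2735 for epithelium and 150 and 135 for endothelium. A sum follows its most abundant markers. From 37°C_DMSO to 25°C_DMSO the mesenchyme sum was 0.459-fold, but 7 of 15 markers had folds above 1 and 8 below (median log2 fold -0.12). Of 13 epithelium markers, 3 had folds above 1 and 10 below, from 0.257-fold to 6.49-fold. Erythroid genes summed to 212 and 223 at 37 °C and to 1421 and 1458 at 25 °C. All 6 were at least 2-fold higher in 25°C_DMSO than in 37°C_DMSO, against 6.45% of all genes. In the same comparison 10 of 15 macrophage and leukocyte genes were at least 2-fold lower, and 6 of 7 bone and odontoblast genes. None of either list was at least 2-fold higher, and 11.5% of all genes were at least 2-fold lower. No marker in the table was at 0 in any library, including those of epithelium and mesenchyme, the tissues of the labelled tooth germ. A count above 0 in bulk RNA does not by itself show that a tissue was present. The part of these shifts in the values of the mitotic genes was not tested.

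The members are spread over 15 chromosomes, with 10 on chromosome 2, and none shares its 4 counts with another gene. In 7 members the annotated gene (GENCODE vM1, mm9) overlaps another on the same strand, in most cases a small RNA: Kif20b, Ndc80, Knstrn, Smc4, Ncapd2, Top2a and Nusap1. How tags were assigned there is not given in the sources used here. Within the members, those whose promoter held a CHR word had a median log2 fold of 0.89 (30 genes) with CPA at 37 °C, and those without one 0.74 (11 genes).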

How the data were processed

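CAGE was run on RNA of cultured tooth germs in 4 libraries, 1 per condition. Per the study's methods, tags were aligned to mm9 and turned into start sites in the MOIRAI pipeline. BWA 0.5.9 and the builds mm9 and GRCh38 are listed, without their roles, in the processing notes of the submitters. Which annotation was used, and how start sites were joined into genes, is not given in the sources used here. Whole-number counts per gene, not normalized, were deposited by the authors for 15887 genes, each with at least 5 counts in some library. There were 0 other columns of per-sample values.

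Counts were scaled by library total and TMM factors (edgeR 4.0.16, R 4.3.3). A gene was measured if the larger of 2 counts was at least 50, and called at a fold of 2. Intervals were exact (Clopper-Pearson, 95%, SciPy 1.17.1). With 1 library per condition no replicate test was run. The script was tested on simulated data with known folds. Alternatives were no scaling, totals alone, DESeq2 (1.42.0) size factors, upper quartile factors, Gapdh, a minimum of 200 or none, 10 added counts, a fold of 1.5, an interval beyond 2-fold, thinning to the shallowest library, and identical rows taken once.

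The members, the gene lists and these choices were made with earlier results of these data known. All members could be named. Of other lists, the named genes are up to 3 at the top and 2 at the bottom of the measured folds with CPA at 37 °C. Positions (mm9, GENCODE vM1, 14333 identifiers matched) and promoters (GRCm38.p6) were not converted between builds. The E2F-like words and a window of 120 bases were added after the counts were seen. In that window a CHR word was found in 46.3% of members, 4.25% of genes in the table and 7.34% of all promoters.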

Additional observations from a re-analysis of the deposited data

Results flagged for a closer look

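In 3 members the counting interval of the CPA fold lay above 1 at 37 °C and below 1 at 25 °C, under the scaling used. The log2 fold at 37 °C minus that at 25 °C was 1.91 for Kif15, 1.17 for Kif2c and 0.63 for Nusap1. With 1 library per condition the difference was not tested, and the intervals cover counting error only. At 25 °C the shifts were 213 to 175 tags for Kif15, 120 to 79 for Kif2c and 460 to 394 for Nusap1, and 10.4% of all genes had an interval below 1 in that comparison, against these 3 of 47 measured members. Scaling to Gapdh, which moves the median of all genes there by 0.28, changes the log2 fold at 25 °C from -0.32 to -0.05 for Kif15, from -0.64 to -0.36 for Kif2c and from -0.26 to 0.01 for Nusap1.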

How the results depend on the processing

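No paired analysis was possible because each condition has 1 library, and for the same reason no replicate could be left out. The calls depended on both the threshold and the scaling. At a fold of 1.5, 38 members were higher with CPA at 37 °C, 1 was lower with CPA at 25 °C (Kif2c), 1 was higher and 10 were lower in 25°C_DMSO than in 37°C_DMSO, and 46 were lower in 25°C_CPA than in 37°C_CPA. The shares of all genes were, in that order, 6.59%, 0.937%, 17.3%, 21.4% and 20.3%. With the whole interval beyond 2-fold, 8 were higher with CPA at 37 °C. Without scaling, the count with CPA at 37 °C was 9 (1.89% of all genes). In that setting 5 members were lower in 25°C_DMSO than in 37°C_DMSO, against 15.7% of all genes, with a median log2 fold of -0.54 (all genes -0.22). With totals alone, 1 was lower in 25°C_DMSO than in 37°C_DMSO, against 13.3% of all genes. Scaled to Gapdh, which itself had 215, 193, 138 and 117 tags, 4 were lower in 25°C_CPA than in 37°C_CPA (4.76% of all genes). Under that scaling 1 was higher in 25°C_DMSO than in 37°C_DMSO (17.8% of all genes). The medians of the members became 0.24 (25 °C, CPA over DMSO), 0.10 (DMSO, 25 over 37 °C) and -0.46 (CPA, 25 over 37 °C). Gapdh moved the median of all genes by 0.28, 0.43 and 0.66 in these 3 comparisons, and turned the calls between the DMSO libraries from 870 higher and 1556 lower to 2399 and 922; without scaling they were 555 and 2124. Under every scaling tried, the median with CPA at 37 °C stayed above 0. Depth limits Spag5, Cenpi, Espl1 and Iqgap3 most.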
